A study of Mus musculus with 22 samples.

Results

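Voltage-gated sodium channels open when a membrane depolarizes and carry the sodium current that forms the rising phase of the action potential. Each channel has a large pore-forming subunit, which senses voltage and conducts sodium, and smaller beta subunits, single-pass membrane proteins that alter gating and tether the channel to the cell surface and to adhesion molecules. In spinal cord these channels cluster at the axon initial segment and at nodes of Ranvier of neurons, including motor neurons. The mRNAs of 8 subunits were followed here, chosen by gene name from the 21995 genes of the count table. Of the 8 members, 5 encode pore-forming or closely related subunits (Scn1a, Scn8a, Scn3a, Scn9a and Scn7a) and 3 encode beta subunits (Scn4b, Scn2b and Scn3b). Every one of them passed the filter on low counts in both comparisons.

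RNA was taken from whole spinal cord of C57BL/6 mice, with 1 RNA-seq library for each of 22 mice. For aging, 8 young (3–4 months) and 8 old (18–24 months) wild-type males were compared, with libraries made by the Roche KAPA HyperPrep kit. For amyotrophic lateral sclerosis (ALS), 3 symptomatic SOD1-G93A mice were compared with 3 wild-type controls, all at 5–6 months and of both sexes, with libraries made by the Illumina TruSeq kit. The SOD1-G93A transgene is a mutant human SOD1 present in many copies and expressed throughout the body, and its carriers develop motor neuron disease. Kit and experiment coincide, so old and SOD1-G93A mice were compared only through their own controls. Libraries are numbered below by their order in the table, which names a library and carries no further meaning. The labels give no culture or litter, and each library was taken as 1 mouse.

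Totals ranged from 5078092 to 9358055 counts in young, 5664869 to 9145600 in old, 10693060 to 13219797 in control and 9675610 to 11872431 in SOD1-G93A libraries. Intervals cover the spread between these libraries and no other source of error. Reads assigned to mouse Sod1 rose from between 156.2 and 167.7 CPM (counts scaled to library size with TMM factors) in controls to between 296.4 and 335.5 CPM in SOD1-G93A mice. Reads of the human transgene and of the mouse gene cannot be told apart in this row. The tissue label was checked against the motor neuron markers Chat, Isl1 and Mnx1, which were detected in all 22 libraries. The 4 skeletal muscle markers summed to 0.388 to 3.5 CPM and the 6 sensory neuron markers to 12.3 to 41.1 CPM. Most of the sensory sum was Calca, which motor neurons also express, and Avil rose in ALS (log2 fold change 2.59, adjusted p = 0.00258, edgeR's quasi-likelihood test). Their part in the results below was not tested.

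The genes lie on 3 chromosomes of the mm10 (GRCm38) genome. Scn3a (chr2:65457118-65567627), Scn1a (chr2:66270778-66440840), Scn9a (chr2:66480080-66634962) and Scn7a (chr2:66673425-66784914) are encoded on the minus strand of chromosome 2, where Scn1a and Scn9a are 39.2 kb apart and Scn9a and Scn7a 38.5 kb apart. Scn3b (chr9:40269217-40291618), Scn2b (chr9:45117782-45130070) and Scn4b (chr9:45138395-45154152) are on the plus strand of chromosome 9, the last pair 8.32 kb apart. Scn8a (chr15:100869858-101045938) is alone on chromosome 15, on the plus strand. Scn1a, Scn3a, Scn2b and Scn3b each overlap 1 annotated noncoding or unclassified gene on the other strand, and Scn9a overlaps 3 genes. None of these overlapping genes is in the count table, and strand use in counting was not stated, so reads from them cannot be told apart from reads of the channel gene.

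Promoter windows of RefSeq (GRCm38.p6), from 250 bases before to 50 after a start site, were found for 6 of the 8 members, with none for Scn3a and Scn3b. Scn1a, Scn8a and Scn2b are shown because all 3 fell in ALS. None was called when libraries were scaled to summed neuronal markers, where Scn2b turned to a positive value. Scn1a and Scn8a were called lower with scaling to the median neuronal marker. The sequences below are the bases before the start site that lie in no annotated exon of the gene, written 5′ to 3′ on the strand of the gene, with capitals marking each CpG dinucleotide. They span chr2:66440841-66441087 for Scn1a (minus strand), chr15:100870395-100870644 for Scn8a (plus strand) and chr9:45117626-45117781 for Scn2b (plus strand). The Scn8a sequence, the first of 2 windows of this gene, lies within its annotated span. The Scn4b window lies mostly in its annotated first exon and is not shown.
Scn1a: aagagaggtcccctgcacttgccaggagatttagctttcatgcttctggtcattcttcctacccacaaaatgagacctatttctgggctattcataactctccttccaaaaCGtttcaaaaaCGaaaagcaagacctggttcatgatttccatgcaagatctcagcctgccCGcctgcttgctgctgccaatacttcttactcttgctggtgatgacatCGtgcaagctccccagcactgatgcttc
Scn8a: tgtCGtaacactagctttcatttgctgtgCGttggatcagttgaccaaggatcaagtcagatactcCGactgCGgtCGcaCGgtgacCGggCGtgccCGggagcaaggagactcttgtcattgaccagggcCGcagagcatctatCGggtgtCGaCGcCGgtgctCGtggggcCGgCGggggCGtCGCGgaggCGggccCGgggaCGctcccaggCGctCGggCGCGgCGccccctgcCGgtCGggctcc
Scn2b: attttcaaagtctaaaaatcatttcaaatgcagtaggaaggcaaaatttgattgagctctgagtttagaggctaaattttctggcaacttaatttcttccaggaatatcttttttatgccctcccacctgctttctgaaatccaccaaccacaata
The Scn8a sequence held 30 CpG in 250 bases, that of Scn1a 4 in 247 and that of Scn2b 0 in 156. In whole windows of 300 bases the G and C content was 70.0% for this Scn8a start, 66.3% for Scn4b, 47.3% for Scn1a and 38.3% for Scn2b, where the median of 32851 windows was 52.7%. The windows of the 4 genes that fell in ALS thus differed widely in base composition. Of the motifs searched on both strands, CCAAT was found once each in the windows of Scn1a and Scn4b and in 37.4% of all windows. GGGCGG was found once in that of Scn7a and in 35.7% of all windows. TATAAA was found in no member's window and in 13.6% of all windows. A match describes letters and no bound factor.

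Within a group, levels of different subunits were compared as FPKM, which divides by transcript length. The order of the medians was the same in young, old, control and SOD1-G93A mice. In young mice Scn4b, a beta subunit that takes part in the resurgent sodium current, had a median of 98.6 FPKM (lowest 88.9, highest 103.5). Scn1a, prominent in inhibitory interneurons, followed at 51.5 FPKM (45.1 to 55.6), and Scn8a, the main pore-forming subunit of mature nodes of Ranvier, at 39.7 FPKM (35.2 to 43.6). Scn2b, a beta subunit linked to the pore by a disulfide bond, had a median of 32.0 FPKM (29.8 to 35.6). The other members were lower. Scn3b, a beta subunit bound without a disulfide, had a median of 8.59 FPKM, and Scn3a, best known from the developing nervous system, had 2.72 FPKM. Scn9a, a channel of nociceptive sensory neurons, had 1.12 FPKM, and Scn7a, an atypical member linked to sensing of sodium concentration, had 0.625 FPKM. In young and old mice Scn8a overlapped with Scn2b and Scn9a with Scn7a, and in old mice Scn1a also overlapped with Scn8a. In control mice no neighbours in the order overlapped. In SOD1-G93A mice the ranges of Scn4b, Scn1a and Scn8a each met that of the next gene, as did that of Scn9a.

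**Figure D1:**
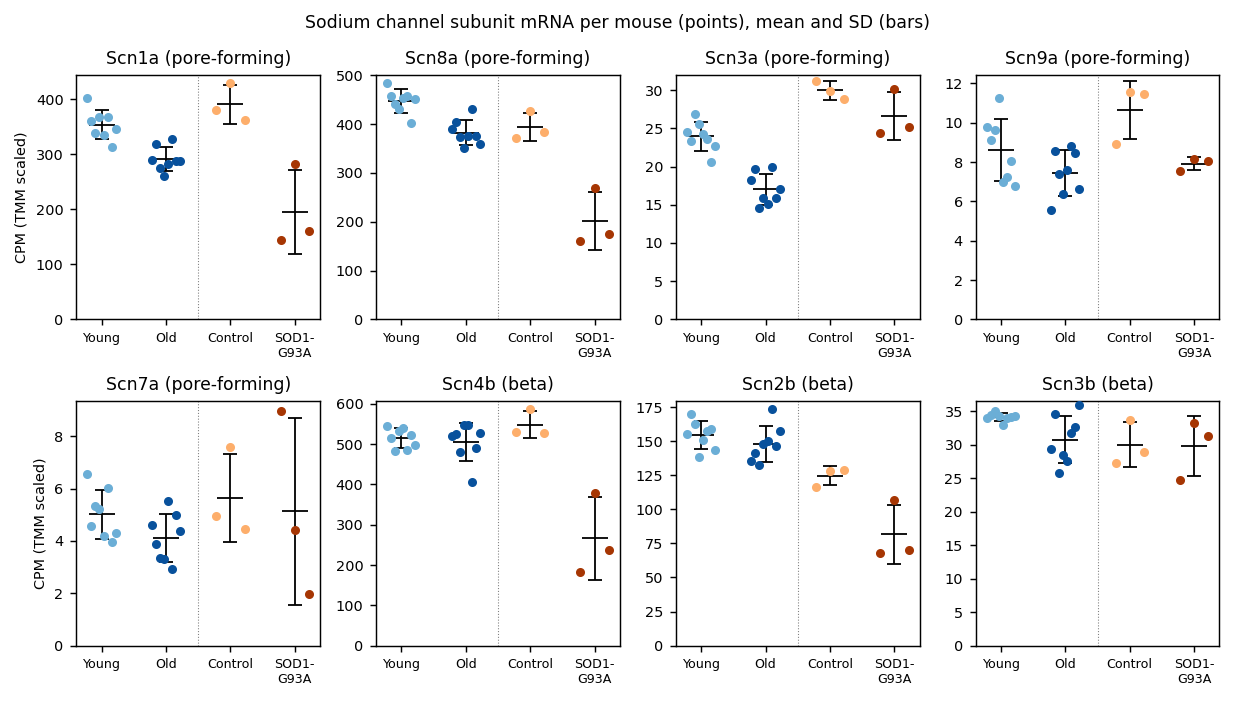
Level of each of the 8 subunits in CPM (vertical axis, linear from 0) by group (horizontal axis); each point is 1 mouse, and bars give the mean and SD. For Scn1a, Scn8a, Scn4b, Scn2b and Scn9a the 3 SOD1-G93A points lie below all 3 control points, as in 24.7% of genes tested. For Scn3a all 8 old points lie below all 8 young points, as in 1.66% of genes tested.

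In aging, Scn3a, Scn1a and Scn8a fell, all by less than the 2-fold change the study used to define a changed gene. Thus 3 of 5 pore-forming members fell and none of the 3 beta members did, against 12.9% of all 13647 genes tested that were lower and 13.5% that were higher at an adjusted p under 0.05 (edgeR's quasi-likelihood test, with p-values adjusted over all tested genes by the Benjamini-Hochberg method). The median log2 fold change of the 8 members was -0.21, that of all genes tested was -0.0027, and all 8 members had a negative value. None of the 8 passed the 2-fold threshold, which 0.044% of genes passed downward and 2.18% upward.

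Scn3a had the largest of these changes. It ranged from 20.6 to 26.9 CPM with a median of 23.9 in young mice and from 14.5 to 19.9 CPM with a median of 16.5 in old mice. The groups did not overlap in CPM, which held in the lower direction for 1.66% of genes tested and in the higher direction for 3.66%. In FPKM they did overlap, with 2.46 to 3.12 in young and 1.52 to 3.05 in old mice. Scn3a fell by 28.8% (log2 fold change -0.49, SE 0.08, adjusted p = 4.12e-05, edgeR's quasi-likelihood test).

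Scn1a, with 314.1 to 402.2 CPM and a median of 353.5 in young mice, had 261.4 to 328.5 CPM and a median of 287.9 in old mice. Old mice were lower on the whole, although the ranges met. Scn1a fell by 17.7% (log2 fold change -0.28, SE 0.05, adjusted p = 0.000282, edgeR's quasi-likelihood test). Scn8a ranged from 402.0 to 484.4 CPM with a median of 452.5 in young mice, compared with 351.6 to 430.9 CPM and a median of 376.2 in old mice, again with overlap. It fell by 14.5% (log2 fold change -0.23, SE 0.05, adjusted p = 0.000642, edgeR's quasi-likelihood test). All 3 calls held with each of the 16 libraries left out in turn. The call on Scn8a was lost with a correction for transcript length (log2 fold change -0.05, adjusted p = 0.372, edgeR's quasi-likelihood test). Scn1a (-0.17, adjusted p = 0.00331) and Scn3a (-0.34, adjusted p = 0.000498) kept their calls in the same test, with smaller changes. That correction moved the median of all genes in aging to -0.036, and 55.9% of all calls were lower, against 48.9% without it.

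The remaining 5 members did not pass the test in aging. Scn4b had medians of 519.6 CPM in young and 523.5 CPM in old mice, with a log2 fold change of -0.03 and a 95% confidence interval from -0.13 to 0.08. Without old library 6, where Scn4b was lowest at 406.7 CPM, the value was 0.014. Scn2b had medians of 156.1 and 147.2 CPM and an interval from -0.17 to 0.05. The intervals of the 2 beta subunits thus contained 0 and reached no further down than -0.17. Scn3b gave -0.15 (-0.28 to -0.02, adjusted p = 0.0759, edgeR's quasi-likelihood test), and leaving out old library 2 or old library 8 made it a call at adjusted p = 0.0354 or 0.0292. Scn9a gave -0.20 (-0.46 to 0.06) and Scn7a -0.29 (-0.61 to 0.03). These last 2 genes rested on 38 to 80 and 19 to 55 counts per library, and smaller changes were not detectable at this depth.

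In SOD1-G93A mice, Scn4b, Scn1a, Scn8a and Scn2b were lower than in controls, the 4 most abundant members. Of the 8 members, 4 fell (2 of 5 pore-forming and 2 of 3 beta), where 15.5% of the 14386 genes tested were lower and 18.4% were higher at an adjusted p under 0.05. Scn4b, and Scn1a by a narrow margin, also passed the 2-fold threshold, as did 1.2% of genes downward and 8.5% upward. The median log2 fold change of the 8 members was -0.52, compared with 0.0031 over all genes tested. In bulk tissue, fewer cells of a type and less RNA per cell cannot be told apart.

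Scn4b was at 529.0, 586.4 and 528.9 CPM in the control libraries and at 181.6, 379.3 and 237.4 CPM in the SOD1-G93A libraries. The groups did not overlap. Scn4b fell by 51.5% (log2 fold change -1.04, SE 0.23, adjusted p = 0.00949, edgeR's quasi-likelihood test).

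Scn1a was at 381.3, 429.9 and 362.2 CPM in controls and at 143.9, 283.1 and 160.0 CPM in SOD1-G93A mice, without overlap. It fell as well (log2 fold change -1.0, SE 0.23, adjusted p = 0.0112, edgeR's quasi-likelihood test). Scn8a was at 372.2, 426.0 and 384.8 CPM in controls and at 160.1, 269.4 and 175.5 CPM in SOD1-G93A mice. Its groups were likewise apart, and it fell by 48.9% (log2 fold change -0.97, SE 0.18, adjusted p = 0.00523, edgeR's quasi-likelihood test).

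Scn2b was at 116.4, 128.2 and 128.8 CPM in controls and at 68.2, 106.9 and 70.1 CPM in SOD1-G93A mice. It was lower in every SOD1-G93A mouse, and fell by 34.4% (log2 fold change -0.61, SE 0.16, adjusted p = 0.0205, edgeR's quasi-likelihood test). The ranges of 3 against 3 libraries stood apart in the lower direction for 24.7% of all genes tested and in the higher direction for 25.7%. In all 4 genes SOD1-G93A library 2 was the highest of its group and nearest to the controls.

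The calls depended on single libraries to different degrees. Scn8a kept its call with each of the 6 libraries left out (largest adjusted p = 0.0335, edgeR's quasi-likelihood test). Without SOD1-G93A library 3, Scn8a was the only member called, Scn1a had an adjusted p of 0.0586 and Scn4b one of 0.0529 by edgeR's quasi-likelihood test. Scn2b lost its call without SOD1-G93A library 3 (adjusted p = 0.0934) or 1 (0.0524) and without control library 2 (0.0707) or 3 (0.071), in the same test.

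**Figure D2:**
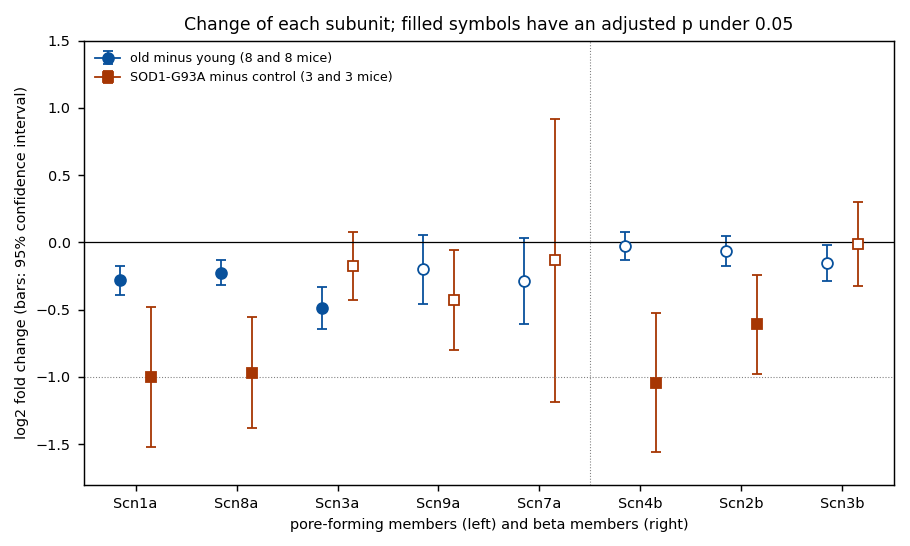
Log2 fold change of each subunit (vertical axis) with 95% confidence intervals in aging (circles, 8 against 8 mice) and ALS (squares, 3 against 3), with filled symbols where the adjusted p was under 0.05. Scn4b lies at -0.03 in aging and at -1.04 in ALS, whereas Scn3a lies at -0.49 and -0.17; scaled to summed neuronal markers, Scn2b, Scn3a, Scn9a, Scn7a and Scn3b have positive values in ALS.

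The other 4 members did not pass the test in ALS. Scn9a was at 8.92, 11.5 and 11.4 CPM in controls and at 7.54, 8.16 and 8.06 CPM in SOD1-G93A mice. The groups did not overlap, but the adjusted p was 0.0722 by edgeR's quasi-likelihood test (log2 fold change -0.43, SE 0.16), and it was 0.0497 without control library 1. In one fit of all 22 libraries Scn9a was called lower, at -0.46 (adjusted p = 0.0388, edgeR's quasi-likelihood test), as the fifth member beside the 4 above. That fit takes the spread of each gene from both experiments. Scn3a, at 31.2, 29.9 and 28.8 CPM in controls, was at 24.4, 30.2 and 25.2 CPM in SOD1-G93A mice, with a log2 fold change of -0.17 and an interval from -0.42 to 0.08. Scn3b was at 27.3, 33.8 and 29.0 CPM and at 24.7, 33.3 and 31.3 CPM, respectively. Its log2 fold change of -0.01 had an interval from -0.32 to 0.30, so a change of the size seen in Scn1a lay outside it.

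Scn7a differed most between mice of 1 group. It was at 4.93, 7.58 and 4.46 CPM in controls and at 8.98, 4.43 and 1.97 CPM in SOD1-G93A mice, from 106, 44 and 22 counts. SOD1-G93A library 1 was thus above every control and library 3 below every control (log2 fold change -0.13, interval -1.18 to 0.92). The same library 1 held 20.9 CPM of Prx, a marker of myelinating Schwann cells, and 23.3 CPM of the fibroblast marker Dcn. In the other 5 libraries of the experiment Prx was at most 1.52 CPM and Dcn at most 11.6 CPM. In aging, old library 5 had both the highest Prx (17.4 CPM) and the highest Scn7a (5.54 CPM) of the old group. Dcn went otherwise there, since old library 6 had the highest Dcn (13.6 CPM) and the lowest Scn7a (2.93 CPM). The part of such cells in the Scn7a values was not tested.

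Whether the change of each member differed between the conditions was asked in one fit of all 22 libraries, as the ALS log2 fold change minus the aging one. Scn4b (-1.04, SE 0.18, adjusted p = 0.000125), Scn8a (-0.77, SE 0.14, adjusted p = 0.000265), Scn1a (-0.75, SE 0.18, adjusted p = 0.00255) and Scn2b (-0.58, SE 0.14, adjusted p = 0.00341) had the more negative change in ALS by edgeR's quasi-likelihood test. This was 4 of 8 members, where 14.2% of 14502 genes tested were more negative in ALS and 11.6% more positive. The 4 calls held with each control or SOD1-G93A library left out. This fit takes the spread of each gene from all 22 libraries, most of them from aging. Its SEs were below those of the ALS comparison alone (Scn4b 0.23, Scn8a 0.18, Scn1a 0.23 and Scn2b 0.16). The p-values of the difference may thus be too small. With libraries scaled to summed neuronal markers, the difference in Scn4b alone kept its call, those in Scn1a and Scn8a were both -0.06 (adjusted p = 0.683 and 0.585), and that in Scn2b turned to 0.14 (adjusted p = 0.247, edgeR's quasi-likelihood test). Scn3a was displaced the other way, by 0.29 (SE 0.13), with an adjusted p of 0.112 in the same test. With summed markers the differences in Scn3a (1.03, adjusted p = 9.29e-06) and Scn3b (0.85, adjusted p = 6.09e-05) were called by edgeR's quasi-likelihood test. That scaling raised the median difference of all genes to 0.76. Differences of kit, age and sex between the experiments cannot be told apart from the difference of condition here.

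Neuronal mRNA as a whole was also lower in SOD1-G93A mice. Of 15 pan-neuronal markers, 14 fell and none rose (15.5% and 18.4% over all genes tested), with a median log2 fold change of -0.60. Their summed level was 10861, 11221 and 11035 CPM in controls and 5284, 8022 and 5992 CPM in SOD1-G93A mice, with library 2 again the highest of its group. The summed level of 8 motor neuron markers, of which 6 fell, was 287.0 to 322.0 CPM in controls and 140.9 to 155.6 CPM in SOD1-G93A mice. It was highest in library 1, unlike Scn4b, Scn1a, Scn8a and Scn2b. Of 6 microglial markers 4 rose, from a sum of 176.3 to 214.6 CPM to one of 520.9 to 792.7 CPM, and 5 of 6 astrocyte markers rose. In aging, 5 of the 15 pan-neuronal markers fell and 2 rose (12.9% and 13.5% over all genes tested). Their sums overlapped (9473 to 10338 CPM in young, 8587 to 10969 CPM in old).

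When libraries were scaled to the summed pan-neuronal markers in place of all genes, none of the 8 members was called lower in ALS, and Scn3a and Scn3b were called higher. This scaling raised the median log2 fold change of all genes in ALS to 0.82, and of all calls it gave, 0.382% were lower, against 45.8% with TMM. On it, Scn1a had a log2 fold change of -0.25 (adjusted p = 0.17), Scn8a -0.20 (0.207) and Scn4b -0.30 (0.104) by edgeR's quasi-likelihood test, while Scn2b turned to 0.17 (0.309). Scn3a had 0.63 (adjusted p = 0.00828) and Scn3b 0.79 (0.0037) in the same test. In the sum, Snap25 (mean 2819 CPM in controls) and Nefl (2450 CPM) weighed most, and Nefl fell most of these markers in ALS (log2 fold change -1.38). With each marker given equal weight, a scaling added after the data were seen, the median of all genes was 0.64. With it 1.22% of all calls were lower, and Scn1a, Scn8a and Scn4b were again called lower. In aging the calls on Scn3a, Scn1a and Scn8a all held with the summed markers, with smaller changes. These were -0.40 (adjusted p = 0.000996), -0.19 (0.0124) and -0.14 (0.0372), respectively, by edgeR's quasi-likelihood test. The call on Scn8a was lost with equal weights (adjusted p = 0.0601, edgeR's quasi-likelihood test). The median of all genes in aging was 0.085 with the summed markers and 0.095 with equal weights. Of the differences between the conditions, the one in Scn4b alone remained called as more negative under either marker scaling.

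**Figure D3:**
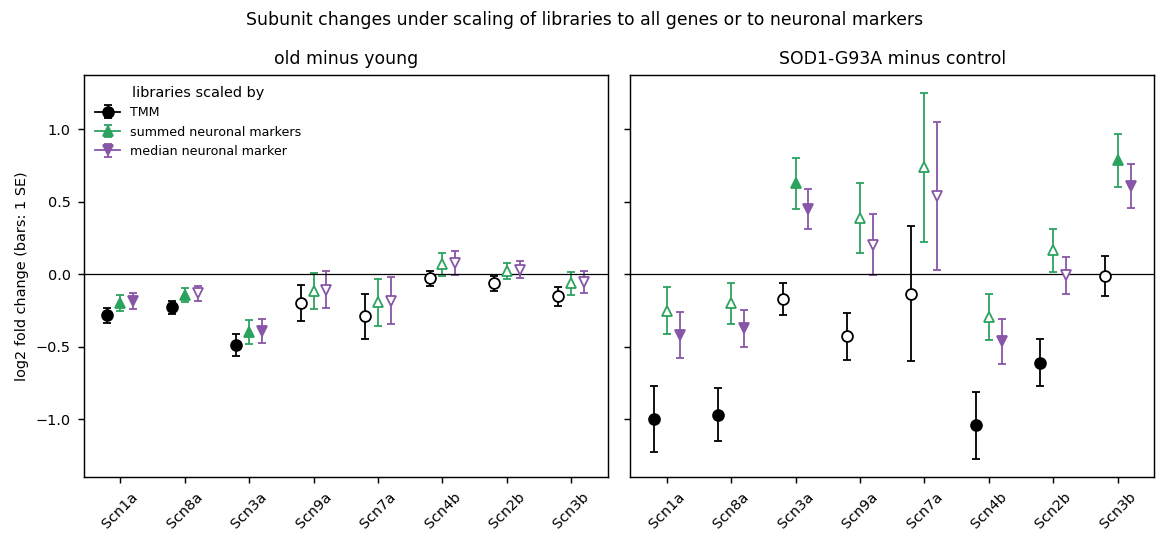
Log2 fold change (vertical axis, bars 1 SE) of each subunit in aging (left) and ALS (right) with libraries scaled to all genes by TMM (circles) or to neuronal markers, summed (upward triangles) or by their median (downward triangles); filled symbols have an adjusted p under 0.05. In ALS, Scn1a moves from -1.0 to -0.25 with summed markers, Scn2b turns from -0.61 to 0.17, and Scn3b turns from -0.01 to 0.79.

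**Figure D4:**
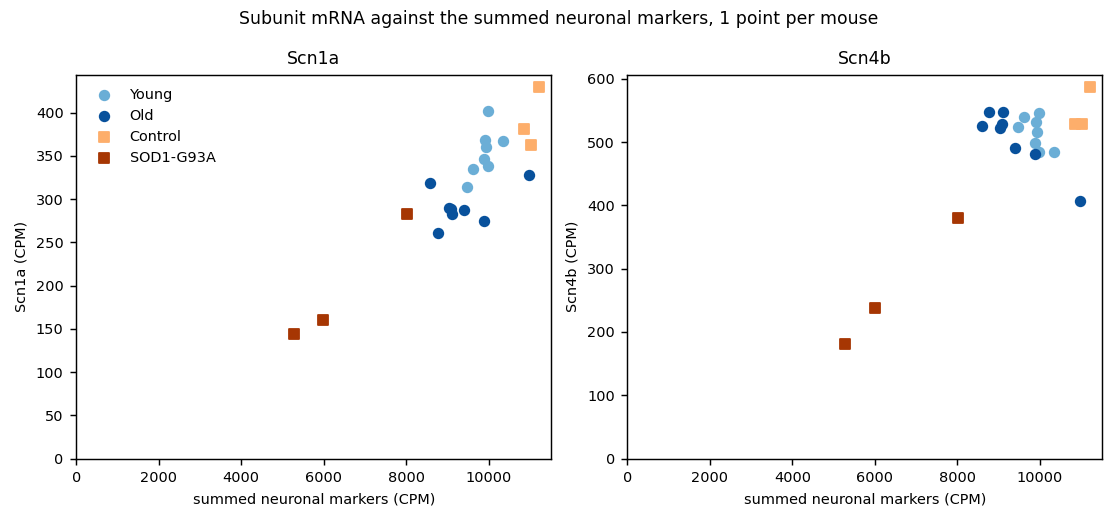
Scn1a (left) and Scn4b (right) in CPM (vertical axes) against the summed level of 15 pan-neuronal markers in CPM (horizontal axes), all axes linear from 0, with 1 point per mouse. The SOD1-G93A mouse with the highest marker sum, 8022 CPM, also has the highest Scn1a and Scn4b of its group, and the old mouse with the highest sum, 10969 CPM, has the highest Scn1a and the lowest Scn4b of its group.

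The make-up of the pore-forming message was described as the share of each of the 5 pore-forming members in their summed FPKM. The sum had medians of 95.4 FPKM in young, 79.7 in old, 91.7 in control and 44.5 in SOD1-G93A mice. Scn1a made up 53.6% ± 1.63 (SD, n = 8) of it in young and 53.4% ± 0.957 (SD, n = 8) in old mice, and Scn8a 41.6% ± 1.45 and 42.2% ± 0.98. By two-sided exact permutation tests, none of the 10 differences in share had a p under 0.05, which the 5 in ALS could not reach. The Scn3a share was 3.61%, 3.21% and 4.12% in controls and 6.75%, 5.15% and 6.96% in SOD1-G93A mice, higher in all 3, with an exact p of 0.1, the smallest that 3 against 3 allows. In aging the Scn3a share was 2.88% in young and 2.52% in old mice on average (exact permutation p = 0.132). Taken from CPM without the length correction, the Scn3a share was lower in every old mouse, and its exact permutation p of 0.000155 was the smallest that 8 against 8 allows. Taken in the same way, the Scn8a share was 1.12 percentage points higher in old mice (exact permutation p = 0.041).

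The genes nearest in pattern to each member were named from Pearson's r over the 22 libraries and 13589 genes. It was taken on log2 CPM after the mean of each group was subtracted, so differences between groups do not enter. These values describe variation between libraries within groups, and carry no test. Scn1a spread most among the 3 SOD1-G93A libraries (SD 76.2 CPM, against 22.1 to 34.9 in the other groups). Scn7a did likewise (SD 3.56 CPM, against 0.912 to 1.68). The r of these 2 genes thus rests in large part on how those 3 libraries differed. For Scn1a the nearest genes were Slc17a6 (r = 0.96), a vesicular glutamate transporter of excitatory neurons, Scn8a (0.96) and Synj1 (0.96), a synaptic phosphatase. Scn8a was nearest to Ttc3 (0.96), Caln1 (0.96) and Scn1a. Scn4b was nearest to Mapk8ip2 (0.93), Ndrg4 (0.93) and Nsg1 (0.92), and Scn2b was close to Tuba4a (0.89) and Rnf157 (0.89). Among members, the pair of Scn1a and Scn8a had the highest r, and Scn4b and Scn2b had 0.52 although their genes are neighbours. Scn3a was nearest to Cep170 (0.83), Sgip1 (0.82) and Impact (0.81), and Scn3b to Sntg1 (0.83), Zfp607b (0.80) and Stxbp5l (0.74). Scn9a, with few counts, was nearest to Zfp568 (0.78), Krtcap3 (0.75) and Cpt1b (0.74). Scn7a was nearest to Dcn (0.78), Azin1 (0.75) and Tnpo1 (0.74).

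Other genes of the family were measured alongside. Scn2a, a pore-forming subunit of unmyelinated axons and immature initial segments, fell in both conditions (-0.35 in aging, adjusted p = 0.000282, and -0.50 in ALS, adjusted p = 0.0265, edgeR's quasi-likelihood test). Nalcn, a sodium leak channel, also fell in both (-0.33, adjusted p = 1.25e-05, and -0.77, adjusted p = 0.0129, edgeR's quasi-likelihood test). Scn4a of skeletal muscle and Scn10a and Scn11a of nociceptors had at most 6 counts in any library and were not tested.

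A list of 19 genes chosen as partners of these channels was read in the same way. Not all of their proteins bind the channels at initial segments and nodes. In aging 14 of the 19 fell and none rose (median log2 fold change -0.20), while in ALS 11 fell and 3 rose (median -0.32). Of all genes tested, 12.9% fell and 13.5% rose in aging, and 15.5% fell and 18.4% rose in ALS. The named genes of this list had the smallest adjusted p-values in either comparison. Tnr, a matrix protein of nodes, fell by 0.49 on the log2 scale in old mice (adjusted p = 3.75e-06) and had 0.22 in SOD1-G93A mice (adjusted p = 0.11) by edgeR's quasi-likelihood test. Nfasc, which encodes the nodal adhesion molecule neurofascin, had -0.29 in aging (adjusted p = 1.54e-05) and 0.37 in ALS (adjusted p = 0.0519, edgeR's quasi-likelihood test). The spectrin gene Sptbn1 (-0.24 and -0.29) and the axonal adhesion gene Cntn2 (-0.23 and -0.32) fell in both conditions. The ankyrin gene Ank2 fell in aging (-0.29), and its value in ALS was -0.22 (adjusted p = 0.0904, edgeR's quasi-likelihood test). The genes that rose in ALS were Gldn, Nrcam and Vcan, named after their values were seen.

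Of 12 sodium pump and exchanger genes, 1 rose and 1 fell in aging, and 2 rose and 4 fell in ALS. Over all genes tested, 13.5% rose and 12.9% fell in aging and 18.4% rose and 15.5% fell in ALS. The calcium exchanger gene Slc8a3 had a log2 fold change of -0.12 in aging (adjusted p = 0.0858) and fell by 0.84 in ALS (adjusted p = 0.00561, edgeR's quasi-likelihood test). The pump regulator Fxyd1 rose in both, by 0.85 in old mice (adjusted p = 1.14e-10) and by 1.98 in SOD1-G93A mice (adjusted p = 0.000281, edgeR's quasi-likelihood test).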

How the data were processed

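Whole spinal cord RNA was sequenced by the authors, aligned with STAR and summarised with RSEM on the mm10 genome, and the submitters' processing notes also name SAMtools 1.3. One table deposited by the authors held RSEM expected counts, not normalised, and all its values were whole numbers. A second deposited table held log2 values, the authors' log2 of FPKM plus 1, from which FPKM was recovered by reversing the log. FPKM was above 0 for 304 values where the count was 0. Strandedness of counting was not given in the sources used here. Table columns name the group of each library without a replicate number, so libraries were assigned by group.

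Genes were matched by Ensembl ID to GENCODE M21, which held 21842 of the 21995 genes and gave the positions. For each comparison genes were kept by filterByExpr (minimum count 10, total 15), scaled by TMM, and tested with edgeR's quasi-likelihood test with p-values adjusted by the Benjamini-Hochberg method. The difference between conditions was an interaction contrast in one fit. CPM were TMM scaled, and log2 CPM for likeness used a prior count of 2 and had the mean of each group subtracted. Shares were compared by exact two-sided permutation over libraries. Count procedures were tested on simulated data. Tools were DESeq2 1.42.0, limma 3.58.1 and edgeR 4.0.16 in R 4.3.3, and Python 3.11.15, pandas 2.3.3, scipy 1.17.1 and matplotlib 3.10.9. Between libraries of a group, 62 pairs were compared and none was identical or agreed within sampling noise (lowest chi-square per degree of freedom 2.52).

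The members, gene lists and tests were chosen with earlier results of these data known. Genes named were the 8 members, the other measured channel genes, at most 5 genes by smallest adjusted p from each of the partner and pump lists, and the 3 genes most alike to each member. Results on some genes that this rule names are not reported here. Alternatives were RLE factors, DESeq2, limma on log2(FPKM + 1), other filters on low counts, one fit of 22 libraries, a loess correction for transcript length (span 0.3), neuronal-marker scaling and each library left out. Depth is given with the groups. Counting error alone allows a gene with 0 counts up to 3 counts, which was 0.227 to 0.591 CPM over all libraries.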

Additional observations from a re-analysis of the deposited data

Results flagged for a closer look

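In 4 members the change differed between the conditions in the test of the difference itself (edgeR's quasi-likelihood test on all 22 libraries), as the ALS log2 fold change minus the aging one. The values were -1.04 for Scn4b, -0.77 for Scn8a, -0.75 for Scn1a and -0.58 for Scn2b. With libraries scaled to summed neuronal markers only the difference in Scn4b was still called, those in Scn1a and Scn8a were both -0.06, and that in Scn2b turned to 0.14. Library kit coincides with the experiment, so its part in these differences cannot be told apart. Spread was also shared between the experiments in this fit, so its p-values may be too small. No library stood apart from its group in 26 sets of 8 values tested for a far value, which were the levels of the 8 members and the shares of the 5 pore-forming members in young and in old mice. Groups of 3 libraries were too small for this test, so the spread of Scn7a in SOD1-G93A mice was not tested. Over all genes, chi-square per degree of freedom was 11.4 to 34.5 between old library 6 and other old libraries, and 2.76 to 13.1 among those. Old library 6 also had the largest share of counts in its top 10 genes (15.1%) and the fewest genes detected (15716). The 3 aging calls held without it.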

How the results depend on the processing

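With all libraries kept, 65 of 72 values of the members in aging, 57 of 72 in ALS and 28 of 40 for the difference between them kept their direction and their side of the threshold, by edgeR, DESeq2 or limma. Most exceptions came from scaling to neuronal markers, which raised the median of all genes in each comparison. In aging 17.6% of all calls were lower with summed markers and 15.3% with the median marker, against 48.9% with TMM. The median marker moved the median difference of all genes to 0.63. The scaling to the median marker, the share with Scn2a in the sum, the length correction of the difference and the left-out libraries in it were added after the data were seen. With summed markers, 0 members were called lower and 2 higher in ALS, and the difference was called lower in 1 (Scn4b) and higher in 2 (Scn3a and Scn3b). With the median marker, 3 were called lower and 2 higher in ALS, and the difference again had 1 lower and 2 higher. In aging the log2 fold change turned positive for Scn4b with summed markers (0.068), the median marker (0.077) and the length correction (0.037), and for Scn2b with summed markers (0.022) and the median marker (0.033). In ALS it turned positive with summed markers and with the median marker, respectively, for Scn3a (0.63 and 0.45), Scn9a (0.39 and 0.21), Scn7a (0.74 and 0.54) and Scn3b (0.79 and 0.61), for Scn2b with summed markers (0.17), and for Scn3b with limma on log2(FPKM + 1) (0.026). The difference turned positive for Scn9a (0.50 and 0.38) and Scn2b (0.14 and 0.020). The difference in share between old and young mice turned positive, in percentage points, for Scn1a (0.20) and Scn7a (0.0015) with Scn2a in the sum and for Scn9a (0.030) from CPM. The length correction moved the median of all genes in ALS to -0.14 and the share of calls that were lower from 45.8% to 64.6%. With 1 library left out, 1 to 5 members were called lower in ALS, the fewest without SOD1-G93A library 3. Over these fits the log2 fold change ran from -0.046 to 0.014 for Scn4b in aging, from -0.83 to 0.26 for Scn7a and from -0.10 to 0.11 for Scn3b in ALS, and from -0.56 to 0.53 for the difference in Scn7a. The cause of these shifts was not tested. No paired analysis was possible because the columns of the tables carry no replicate number. With 3 libraries against 3, and 22 to 106 counts of Scn7a in SOD1-G93A mice, only large changes of Scn7a could be seen.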
